A study of Mus musculus with 31 samples.

Results

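The methionine cycle and the transsulfuration pathway were followed through 9 genes (Mat2a, Mat2b, Ahcy, Mtr, Mtrr, Cbs, Cth, Cdo1 and Mtap) in RNA-seq gene counts of Panc02, a murine pancreatic adenocarcinoma cell line. The members were taken by gene symbol from the 3 count tables of the study, which hold 60172 genes in all, and each symbol had a single entry in each table. All 9 passed the filter on low counts in every table (19207, 21367 and 28730 genes tested). The 31 samples fell into 11 groups. The labels name Panc02 as the cell line of 21 samples and give each of the 10 overexpression samples a name of its own, numbered on from Panc03 to Panc12. These 10 were taken as Panc02, the line in the study's methods. In the conditioned medium table, WT spheroids in Matrigel were grown in control medium (Ctrl, DMEM with serum), in conditioned medium of unstimulated bone marrow-derived macrophages (M0-CM) or in that of macrophages given IFNγ and then LPS (M1-CM), with 3 samples each. The 2D/3D table held WT and Cxcl5-/- cells grown in 2D or as 3D spheroids, with 3 samples each. The overexpression table held 3D cultures of WT cells (n = 2), Cxcl5-/- cells (n = 2), Cxcl5-/- cells with overexpressed mutant Hif1a (Hif1aOE Cxcl5-/-, n = 3) and Cxcl5-/- cells with overexpressed Myc (MycOE Cxcl5-/-, n = 3). The knockout was made with a single guide RNA from a lentiviral CRISPR vector under puromycin selection. The overexpression constructs were retroviral and were put into Cxcl5-/- cells, so both overexpression groups also carried the Cxcl5 deletion. No group with an empty overexpression vector was among the samples. Whether the lines were clones was not given in the sources used here. The study's methods speak of biological replicates for its experiments in general, without saying which RNA-seq samples were separate cultures, so p-values measure the spread between these samples, which may be technical.

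The methionine cycle turns methionine into S-adenosylmethionine (SAM), the methyl donor of the cell, through methionine adenosyltransferase. The catalytic subunit of this enzyme outside the liver is encoded by Mat2a and its regulatory subunit by Mat2b. Methyl transfer leaves S-adenosylhomocysteine, which AHCY splits into adenosine and homocysteine. Homocysteine is either methylated back to methionine by MTR, a cobalamin enzyme kept active by MTRR, or passed to transsulfuration, in which CBS makes cystathionine and CTH releases cysteine for glutathione. CDO1 oxidizes cysteine to its sulfinic acid, and MTAP returns the methylthioadenosine formed in polyamine synthesis to methionine salvage.

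The tables held 41542533 to 78498230 counts per sample, and levels below are CPM (counts per 1000000 counts of the library) scaled by the trimmed mean of M values (TMM) in each table separately. Cxcl5 itself went against one set of labels. The libraries labelled 3D Cxcl5-/- held 40.9 to 65.5 CPM of it and those of 3D WT 24.5 to 28.5 CPM (log2 difference of 0.91 with SE 0.14, adjusted p = 0.000173), whereas in the overexpression table Cxcl5 was lower in Cxcl5-/- (36.6 and 40.2 CPM) than in WT (64.2 and 67.7 CPM). A count over a whole gene does not read an edited allele. Hif1a and Myc were lower in Cxcl5-/- than in WT 3D cultures of both tables that held Cxcl5-/- cells. In Ctrl, the WT spheroids of the conditioned medium table, Myc stood at 8.09 to 12.9 CPM, a range that holds the values of the libraries labelled 3D Cxcl5-/-. Hif1a in Ctrl, at 247 to 373 CPM, overlapped with 3D WT. In the 2D/3D table Hif1a stood at 140 to 175 CPM in the libraries labelled 3D Cxcl5-/- and 336 to 407 CPM in 3D WT, and Myc at 9.12 to 11.4 and 33.9 to 36.9 CPM. In the overexpression table Hif1a stood at 304 and 324 CPM in WT and Myc at 46.1 and 49.3 CPM. Hif1a stood at 243 to 296 CPM in Hif1aOE Cxcl5-/- and at 133 and 144 CPM in Cxcl5-/-, and Myc at 397 to 548 CPM in MycOE Cxcl5-/- and at 20.0 and 22.3 CPM in Cxcl5-/-. Of the ductal markers, Krt8 and Krt18 were expressed in every sample, while Epcam and Cdh1 stayed at or below 28 counts. Of 6 macrophage markers, Adgre1, Tyrobp, Itgam and Csf1r stayed at or below 33 counts in every sample and Ptprc at or below 87, while Cd68, a lysosomal protein, had 62 to 641 counts.

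By level per kilobase of merged exon, Ahcy and Mat2a were the most abundant members and Cdo1 and Cbs the least in all 11 groups. In 3D WT of the 2D/3D table the order was Ahcy at 36.7 ± 2.49 CPM per kb (SD, n = 3), Mat2a at 27.2 ± 0.571, Mat2b at 13.8 ± 0.728, Cth at 4.05 ± 0.267, Mtr at 3.81 ± 0.0800, Mtrr at 3.28 ± 0.295, Mtap at 0.772 ± 0.385, Cdo1 at 0.222 ± 0.203 and Cbs at 0.0523 ± 0.0386. Mtr (3.75 to 3.90) overlapped with Cth (3.77 to 4.31), and Cdo1 (0 to 0.398) with Cbs (0.0233 to 0.0961), while the other neighbours in this order did not overlap. In the Cxcl5-/- 3D groups without overexpression, 1 in each of these tables, Mat2a stood above Ahcy, and in the other 9 groups Ahcy stood first by its mean. Cth moved from rank 4 in 3D WT to rank 7 in the libraries labelled 3D Cxcl5-/-.

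The sequences before the start sites of Ahcy and Mat2a are shown because these abundant members moved in opposite directions between genotypes, and that of Cbs because it was the only member window with a match to the motifs searched. Each is the 250 bases before a RefSeq start site (GRCm38.p6), written 5′ to 3′ on the strand of the gene, with matches to CACGTG in capitals. Ahcy is at chr2:155074498-155074747, Mat2a at chr6:72439557-72439806 and Cbs at chr17:31637206-31637455, all on the minus strand.
Ahcy: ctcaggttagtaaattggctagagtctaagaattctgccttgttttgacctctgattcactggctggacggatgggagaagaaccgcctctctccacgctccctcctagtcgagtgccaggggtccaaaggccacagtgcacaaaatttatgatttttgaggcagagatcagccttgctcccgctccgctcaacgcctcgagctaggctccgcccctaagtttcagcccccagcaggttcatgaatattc
Mat2a: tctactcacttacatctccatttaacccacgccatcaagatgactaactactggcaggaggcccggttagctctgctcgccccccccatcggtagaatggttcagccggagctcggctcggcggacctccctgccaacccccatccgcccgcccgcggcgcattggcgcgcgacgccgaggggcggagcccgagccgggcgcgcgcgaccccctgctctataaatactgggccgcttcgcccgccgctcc
Cbs: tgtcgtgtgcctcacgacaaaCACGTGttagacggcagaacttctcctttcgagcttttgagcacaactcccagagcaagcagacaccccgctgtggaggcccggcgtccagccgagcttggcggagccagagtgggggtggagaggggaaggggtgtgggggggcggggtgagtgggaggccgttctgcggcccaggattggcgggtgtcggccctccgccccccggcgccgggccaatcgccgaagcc
The motifs searched on both strands were CACGTG, the E-box bound by MYC and related factors, its shorter overlapping form ACGTG, the core of hypoxia response elements, and TGATGNAAN, the C/EBP-ATF element bound by ATF4. Among 32851 windows of this length, 6.02% held CACGTG, 16.6% ACGTG and 3.44% TGATGNAAN. Windows were found for 7 of the 9 members, Mtrr with a pair of start sites, and Cth and Cdo1 had none in the table. Only the Cbs window held a match to the motifs searched, a single CACGTG, which as a palindrome also gives ACGTG on both strands. GC content was 52.8% before Ahcy, 67.6% before Mat2a and 68.0% before Cbs. A lack of a match says only that these letters are not in the window.

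In the annotation of the same build (GENCODE M21, GRCm38), the gene of Cth spans chromosome 3 from 157894248 to 157925077, Ahcy chromosome 2 from 155059310 to 155074497 and Mat2a chromosome 6 from 72432799 to 72439558, all on the minus strand. Ahcy has near-identical copies, Gm4737 (also named Ahcyl, 99.7% identity over 2083 bases) and Gm9826 (99.2% over 1299 bases), and Mat2a has Gm9523 (95.6% over 1164 bases), so reads could be split among them. Cth shares 2231 bases with Gm43314 on the same strand, and the spans of Ahcy, Mat2a and Mtap overlap genes on the opposite strand (Gm45609, Particl and Gm12607). The strand setting of the counting was not given in the sources used here.

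The first comparison asked what 3D growth changed in WT cells. Cth, which releases cysteine at the end of transsulfuration, was 3.54-fold higher in 3D, while Ahcy was 2.48-fold, Mat2a 1.79-fold, Mtr 1.53-fold and Mtrr 1.26-fold lower. Of the 9 members, 1 rose and 4 fell, against 44.3% of all 21367 genes that passed the test in either direction. The members' median log2 fold change was -0.33 and that of all genes 0.0020.
Cth counted 2.97, 3.54 and 3.07 CPM in the 2D WT samples and 12.02, 11.4 and 10.5 CPM in 3D WT. All 3D samples lay above all 2D samples, and the log2 fold change, here and below with its SE, was 1.82 ± 0.16 (adjusted p = 7.82e-07). Ahcy counted 262, 228 and 277 CPM in 2D WT and 108, 95.1 and 106 CPM in 3D WT. The groups did not overlap, and Ahcy fell by 1.31 ± 0.09 on the log2 scale (adjusted p = 8.98e-08). Mat2a ranged from 217 to 220 CPM in 2D WT and from 119 to 124 CPM in 3D WT (log2 fold change -0.84 ± 0.07, adjusted p = 7.47e-07). Its partner subunit Mat2b moved less, from 74.3 to 77.8 CPM in 2D to 65.0 to 72.3 CPM in 3D, and did not pass (log2 fold change -0.15 ± 0.08, adjusted p = 0.155). Of the remethylation pair, Mtr fell by 0.62 ± 0.07 (adjusted p = 1.27e-05) and Mtrr by 0.33 ± 0.10 (adjusted p = 0.0115) on the log2 scale, the latter with adjusted p of 0.0613 without 2D WT replicate 3 and 0.0838 without 3D WT replicate 3. Mtap was lower in the means, but 3D WT replicate 3 (3.87 CPM) lay among the 2D samples, and it passed the test only without that sample or with library totals as the scale. The summed fibroblast markers stood at 24.7 to 26.7 CPM in 2D WT and 72.9 to 75.8 CPM in 3D WT, and the summed ductal markers at 546 to 593 and 853 to 1097 CPM. Their part in these differences was not tested. The methods name Panc02 as the only cells seeded for spheroids. In bulk RNA, a change in the share of cells that express a marker and a change in RNA per cell cannot be told apart.

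**Figure D1:**
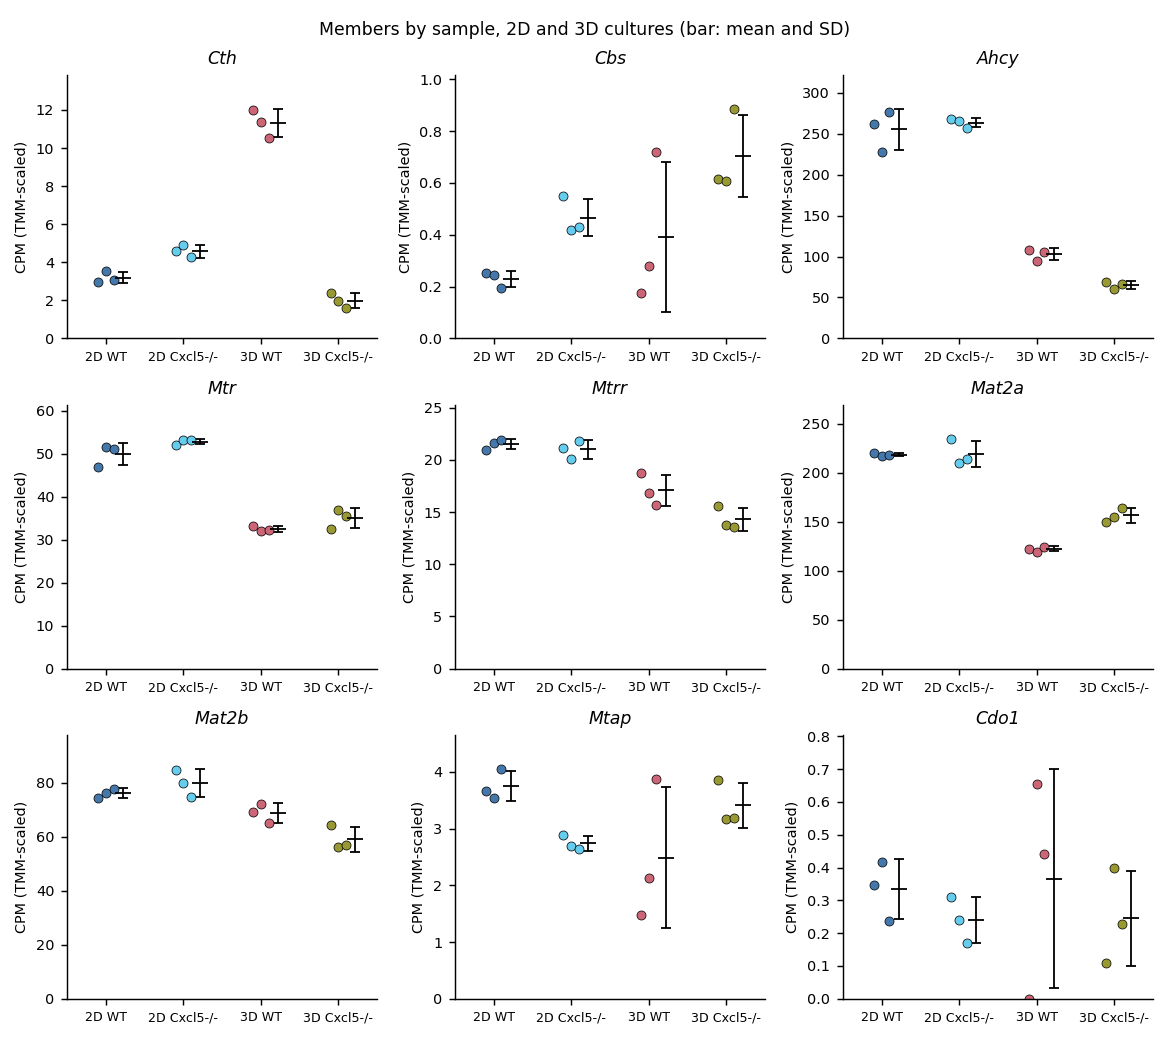
TMM-scaled CPM (vertical axes, from 0) of the 9 members in each sample of 2D WT, 2D Cxcl5-/-, 3D WT and the libraries labelled 3D Cxcl5-/- (3 points each), with bars for the mean and SD. Cth is highest in 3D WT (10.5 to 12.02 CPM) and lowest in the libraries labelled 3D Cxcl5-/- (1.59 to 2.38 CPM), while Ahcy steps down from 2D to 3D WT and again to 3D Cxcl5-/-.

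The next comparison asked what the deletion of Cxcl5 changed in 3D. Against 3D WT, the libraries labelled 3D Cxcl5-/- held 5.70-fold less Cth, 1.58-fold less Ahcy and 1.28-fold more Mat2a. Of the 9 members, 1 rose and 4 fell, against 45.0% of all genes in either direction, with a median of -0.22 among members and -0.04 among all genes on the log2 scale.
In the libraries labelled 3D Cxcl5-/-, Cth counted 2.38, 1.98 and 1.59 CPM, or 104 to 151 counts against 487 to 620 in 3D WT. Its log2 fold change was -2.51 ± 0.17 (adjusted p = 7.51e-08), and the levels also lay below those of 2D WT. Ahcy counted 68.9, 60.5 and 66.4 CPM and fell by 0.66 ± 0.09 on the log2 scale (adjusted p = 5.37e-05). Mat2a counted 150, 155 and 164 CPM, above all 3 samples of 3D WT, with a log2 fold change of 0.36 ± 0.07 (adjusted p = 0.00141). Mtr (32.4 to 36.9 CPM) overlapped with 3D WT and did not pass. Mtrr and Mat2b passed by small differences, -0.26 ± 0.10 (adjusted p = 0.0435) and -0.22 ± 0.08 (adjusted p = 0.0366), but with library totals as the scale their signs turned to 0.13 and 0.16, and both calls were lost with DESeq2 (adjusted p = 0.0609 for Mtrr and 0.0692 for Mat2b). The summed ductal markers were lower than in 3D WT, at 217 to 236 CPM, with 3 of 5 tested markers lower and 1 higher. The summed fibroblast markers were higher, at 204 to 235 CPM, but of the 5 markers 3 fell (Dcn, Lum and Col1a2, median of the list -1.06) and 1 rose, Pdgfra, by 3.33 ± 0.10 on the log2 scale (adjusted p = 7.36e-11), which made up most of the sum. Their part in these differences was not tested.

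In 2D the same genotypes differed in none of the 9 members by edgeR's test at an adjusted p under 0.05, against 7.03% of all genes. At an unadjusted p under 0.05 in edgeR's test, 2 of the 9 passed, beside 3904 of all 21367 genes. DESeq2 called 1 member, Cth, beside 2038 of 41215 genes. Cth counted 4.56, 4.92 and 4.25 CPM in 2D Cxcl5-/-, above every 2D WT sample, with a log2 fold change of 0.52 ± 0.16 (adjusted p = 0.0732, and 0.0190 with DESeq2). Ahcy (258 to 268 CPM) and Mat2a (210 to 234 CPM) overlapped with 2D WT.
The interaction term, which tests whether the genotype acted differently in 3D and in 2D, called 3 of the 9 members, against 27.2% of all genes. The log2 effect of the genotype on Cth was lower in 3D than in 2D by -3.03 ± 0.23 (adjusted p = 1.52e-06) and that on Ahcy by -0.71 ± 0.13 (adjusted p = 0.00124), whereas the effect on Mat2a was higher in 3D by 0.35 ± 0.10 (adjusted p = 0.0231). The call on Mat2a was lost when any of 9 of the 12 samples was left out, with differences of 0.28 to 0.45 over all 12.
Between 3D and 2D within the Cxcl5-/- genotype, 6 of 9 members fell and 0 rose, against 57.0% of all genes in either direction. Cth fell here by 1.21 ± 0.16 on the log2 scale (adjusted p = 2.74e-05), where in WT cells it had risen with 3D growth, and Ahcy fell by 2.02 ± 0.09 (adjusted p = 1.41e-09). Mtr, Mtrr, Mat2a and Mat2b fell by 0.60, 0.56, 0.49 and 0.44. The median of all genes stood at 0.11 in this comparison, so the falls are larger relative to it. It shares the 3D and 2D Cxcl5-/- samples with the comparisons above.

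A second set of 3D WT and Cxcl5-/- cultures, with 2 samples each, came from the overexpression table. Cth was 6.07-fold and Ahcy 2.11-fold lower in Cxcl5-/-, and Mat2a was 2.94-fold and Mtap 1.97-fold higher. Of the 9 members, 2 rose and 2 fell, against 41.9% of all 28730 genes. The median log2 fold change of all genes was -0.30 and that of the members 0.03.
Cth counted 8.45 and 9.02 CPM in WT and 1.41 and 1.46 CPM in Cxcl5-/- (68 and 72 counts), a log2 fold change of -2.60 ± 0.30 (adjusted p = 5.30e-05). Ahcy counted 97.8 and 100.02 CPM in WT and 47.0 and 46.9 CPM in Cxcl5-/- (log2 fold change -1.07 ± 0.09, adjusted p = 6.80e-06). Mat2a counted 101 and 99.2 CPM in WT and 293 and 295 CPM in Cxcl5-/-, the highest levels of any group in this table. Its log2 fold change was 1.56 ± 0.09 (adjusted p = 3.59e-07), against 0.36 in the other table, and whether the tables differ was not tested because they were normalized separately. Mtap, the salvage enzyme, counted 2.71 and 2.17 CPM in WT and 4.15 and 5.50 CPM in Cxcl5-/- (log2 fold change 0.98 ± 0.25, adjusted p = 0.00873), and the call was lost without WT replicate 2 (adjusted p = 0.0747) or without Cxcl5-/- replicate 2 (adjusted p = 0.0907). Mtrr and Mat2b, which passed narrowly in the 2D/3D table, overlapped between WT and Cxcl5-/- here. The direction of Cth, Ahcy and Mat2a was the same in both tables. The ductal marker sum was 287 and 302 CPM in Cxcl5-/- against 856 and 903 CPM in WT here, with 3 of 6 tested markers lower and 0 higher. The fibroblast sum was 270 and 271 against 22.4 and 25.8 CPM, with 4 of 5 markers higher and 0 lower, whereas in the 2D/3D table most of these markers fell. Their part was not tested.

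Overexpression of mutant Hif1a or of Myc was then compared with Cxcl5-/- cells of the same table. Cth and Ahcy rose and Mat2a fell in both. The Cxcl5-/- libraries here are those of the comparison with WT above, which favours changes in the opposite direction. How many of all genes reversed was not counted. In Hif1aOE Cxcl5-/-, 3 members rose and 1 fell, against 35.5% of all genes, and in MycOE Cxcl5-/- 4 rose and 2 fell, against 39.6%. The medians of all genes were 0.16 and 0.11 and those of the members 0.0044 and 0.20.
Cth counted 2.43, 3.81 and 2.64 CPM in Hif1aOE Cxcl5-/- and 5.99, 3.46 and 4.83 CPM in MycOE Cxcl5-/-. All samples lay above Cxcl5-/- and below WT. The log2 fold change against Cxcl5-/- was 1.04 ± 0.28 with Hif1a (adjusted p = 0.0122) and 1.73 ± 0.28 with Myc (adjusted p = 0.000467). The first call was lost without Cxcl5-/- replicate 1 (adjusted p = 0.0765) or replicate 2 (adjusted p = 0.0658). Ahcy counted 101, 110 and 91.3 CPM in Hif1aOE Cxcl5-/- (log2 fold change 1.10 ± 0.09, adjusted p = 3.90e-06), which spans the WT values. In MycOE Cxcl5-/- it counted 140, 133 and 135 CPM, above every WT sample (log2 fold change against Cxcl5-/- 1.53 ± 0.09, adjusted p = 3.69e-07). Mat2a counted 149, 136 and 135 CPM with Hif1a and 166, 149 and 161 CPM with Myc, below Cxcl5-/- and above WT. It fell against Cxcl5-/- by 1.07 ± 0.08 (adjusted p = 2.17e-06) and by 0.89 ± 0.08 (adjusted p = 5.04e-06) on the log2 scale. No fit against WT was made for the overexpression groups, so their levels beside WT are a description.
Mat2b, at 56.3 and 56.7 CPM in Cxcl5-/-, rose to between 62.1 and 82.5 CPM with Hif1a (log2 fold change 0.35 ± 0.11, adjusted p = 0.0247) and to between 89.3 and 98.1 CPM with Myc (0.73 ± 0.11, adjusted p = 0.000253). The call with Hif1a was lost with library totals (0.12, adjusted p = 0.276) and without any of 4 of the 5 samples. In MycOE Cxcl5-/- Mtrr rose by 0.58 ± 0.14 (adjusted p = 0.00713) and its partner Mtr fell by 0.37 ± 0.11 (adjusted p = 0.0168). Mtrr lost the call with library totals (0.24, adjusted p = 0.270) and without Cxcl5-/- replicate 2 (adjusted p = 0.0844), and Mtr without Cxcl5-/- replicate 1 (adjusted p = 0.203) or MycOE Cxcl5-/- replicate 1 (adjusted p = 0.0571). The summed fibroblast markers were 29.2 to 45.2 CPM with Hif1a and 148 to 170 CPM with Myc, below the 270 and 271 CPM of Cxcl5-/-. The ductal sum was 705 to 837 CPM with Hif1a, above Cxcl5-/- (287 and 302 CPM). With Myc it was 267 to 312 CPM, which overlapped with Cxcl5-/-. Of 6 tested ductal markers, 4 were called higher and 1 lower with Hif1a, and 2 higher and 0 lower with Myc. Their part was not tested.
Set against each other, MycOE Cxcl5-/- exceeded Hif1aOE Cxcl5-/- in 3 members (Ahcy, Mtrr and Mat2b), with 0 lower, against 19.3% of all genes. Ahcy differed by 0.44 ± 0.08 on the log2 scale (adjusted p = 0.00182), Mat2b by 0.37 ± 0.10 (adjusted p = 0.0176) and Mtrr by 0.42 ± 0.13 (adjusted p = 0.0360). Cth overlapped between these groups, with a difference of 0.68 ± 0.23 that did not pass (adjusted p = 0.0640, and 0.0415 with DESeq2). The call on Mat2b was lost without any of 3 of the 6 samples and that on Mtrr without any of 5, with library totals (0.31, adjusted p = 0.195) or with no filter (0.42, adjusted p = 0.0830).

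**Figure D2:**
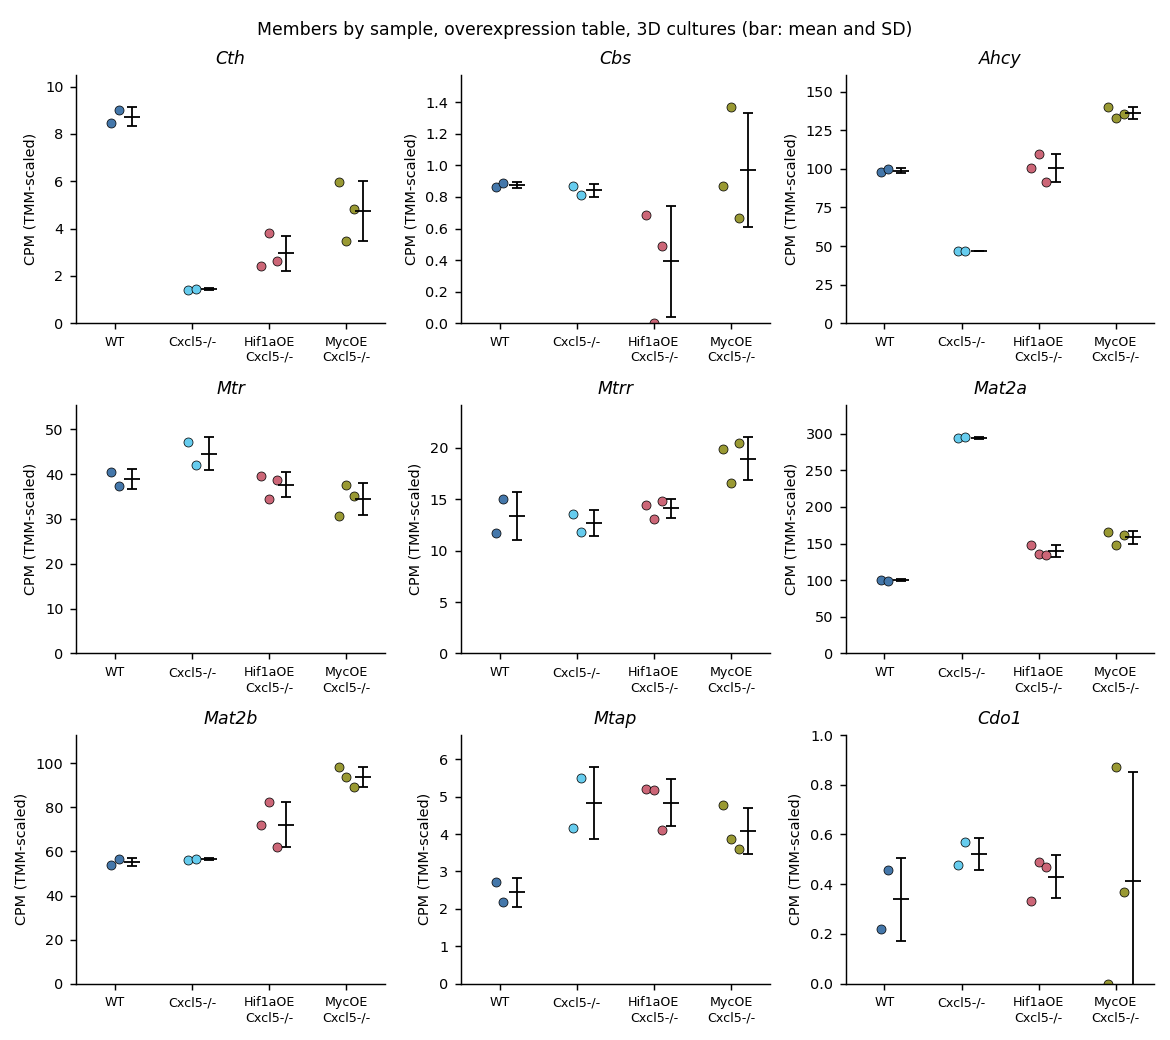
TMM-scaled CPM (vertical axes, from 0) of the 9 members in each sample of WT (2 points), Cxcl5-/- (2), Hif1aOE Cxcl5-/- (3) and MycOE Cxcl5-/- (3) in the overexpression table, with bars for the mean and SD. Mat2a peaks in Cxcl5-/- at 293 and 295 CPM, where Ahcy (46.9 and 47.0 CPM) and Cth (1.41 and 1.46 CPM) are lowest.

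**Figure D3:**
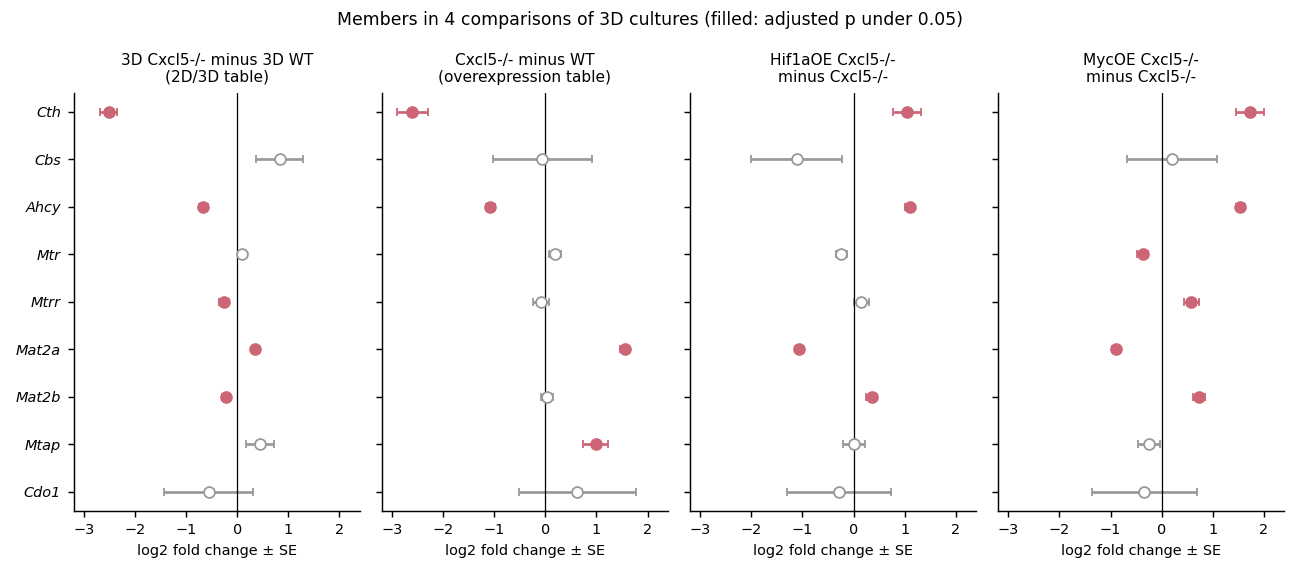
Log2 fold change ± SE (horizontal axis) of each member in 4 comparisons of 3D cultures, filled where the adjusted p was under 0.05. Cth (-2.51 and -2.60) and Ahcy (-0.66 and -1.07) lie left of 0 in both tables for Cxcl5-/- against WT and right of 0 for both overexpression lines, and Mat2a lies on the other side in each. The 3 comparisons of the overexpression table share their Cxcl5-/- libraries, which favours opposite signs.

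Because scaling moved some calls, members were also compared as ratios of counts within a sample, which no scaling changes. The ratio of Mat2a to Ahcy counts was 1.13 to 1.26 in 3D WT and 2.17 to 2.56 in the libraries labelled 3D Cxcl5-/-, while 2D WT (0.789 to 0.949) and 2D Cxcl5-/- (0.788 to 0.875) overlapped. In the overexpression table it was 0.992 and 1.03 in WT, 6.24 and 6.29 in Cxcl5-/-, 1.24 to 1.48 in Hif1aOE Cxcl5-/- and 1.12 to 1.19 in MycOE Cxcl5-/-. The Cxcl5-/- 3D groups without overexpression thus stood apart from every other group of their table in this ratio, on which no test was run. Mat2a and Ahcy had already moved in opposite directions between genotypes in 3D, so the ratio is no separate evidence. In the conditioned medium table it was 0.814 to 1.42 in Ctrl, 0.848 to 1.07 in M0-CM and 0.865 to 1.97 in M1-CM. The ratio of Mat2a to Mat2b, the catalytic and regulatory subunits, was 1.65 to 1.91 in 3D WT and 2.33 to 2.89 in the libraries labelled 3D Cxcl5-/-, which overlapped with 2D WT (2.81 to 2.96) and 2D Cxcl5-/- (2.62 to 2.86), so in this ratio 3D WT was the group that lay apart. It was 1.75 and 1.87 in WT and 5.20 and 5.22 in Cxcl5-/- of the overexpression table, with 1.65 to 2.17 in Hif1aOE Cxcl5-/- and 1.59 to 1.81 in MycOE Cxcl5-/-. The ratio of Cth to Ahcy counts was 0.0993 to 0.120 in 3D WT and 0.0239 to 0.0346 in the libraries labelled 3D Cxcl5-/-, and it did not separate Cxcl5-/- (0.0300 and 0.0312) from Hif1aOE Cxcl5-/- (0.0241 to 0.0348) or MycOE Cxcl5-/- (0.0260 to 0.0427).

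**Figure D4:**
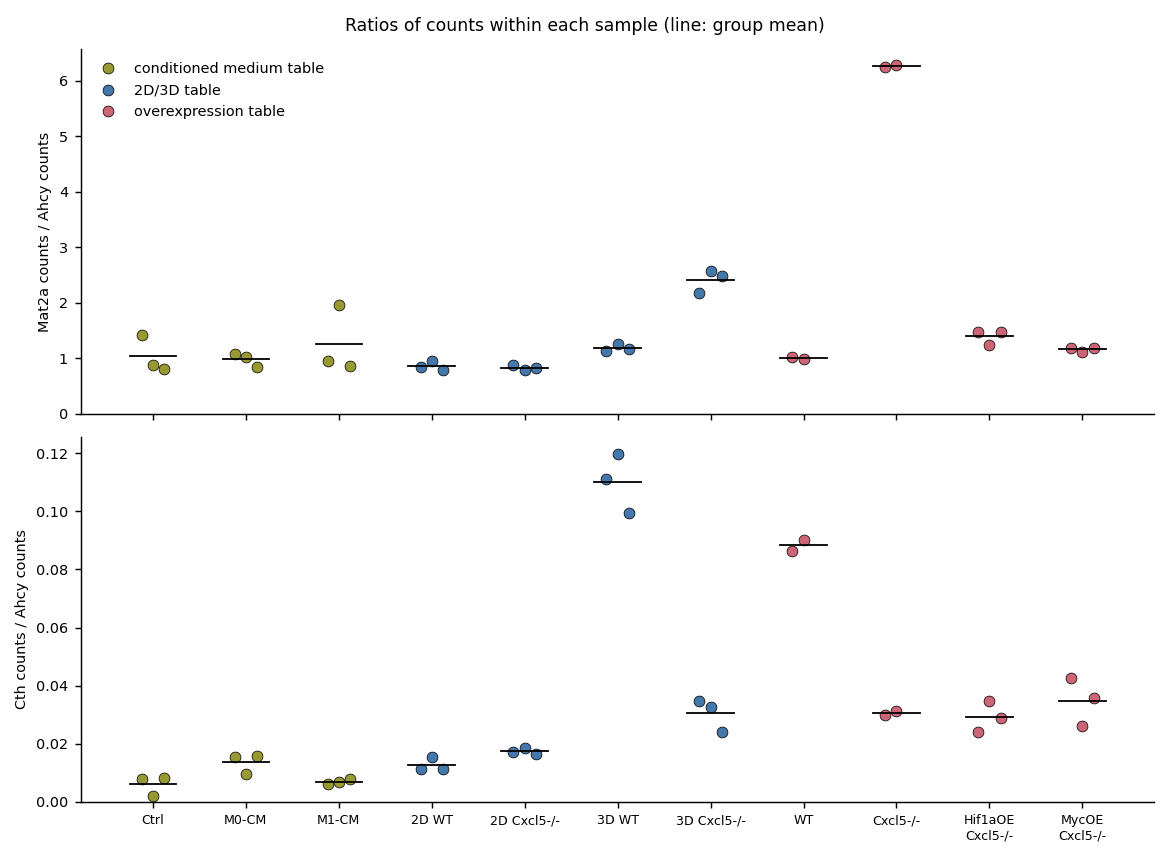
Ratio of Mat2a to Ahcy counts (upper panel) and of Cth to Ahcy counts (lower panel) in each of the 31 samples, by group, with lines for group means and colours for the 3 tables. The upper ratio is highest in Cxcl5-/- of the overexpression table (6.24 and 6.29), and the lower ratio is highest in the WT spheroids of the 2D/3D (0.0993 to 0.120) and overexpression tables (0.0864 and 0.0902).

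Macrophage-conditioned medium was compared with control medium in WT spheroids. By edgeR's test 0 of 9 members passed in M1-CM against Ctrl, M0-CM against Ctrl or M1-CM against M0-CM, where 0.0156%, 0% and 0.0156% of the 19207 genes did. At an unadjusted p under 0.05, 0 members passed in any of these comparisons, against 903, 569 and 498 genes, and DESeq2 called 0 members. Cxcl5 was among the genes that passed, with a log2 fold change of 2.76 ± 0.17 in M1-CM against Ctrl (adjusted p = 0.000474).
Cth counted 0.710, 0.305 and 1.03 CPM in Ctrl, 1.65, 1.13 and 1.67 CPM in M0-CM and 0.800, 0.433 and 0.882 CPM in M1-CM. The M0-CM samples lay above all others, yet with 21 to 113 counts per sample the log2 fold change against Ctrl was 1.13 ± 0.53 (unadjusted p = 0.0602 in edgeR's model, adjusted p = 1). Ahcy counted 89.9, 164 and 124 CPM in Ctrl, 107, 117 and 106 CPM in M0-CM and 130, 62.4 and 115 CPM in M1-CM, with a spread between samples of a group as large as that between groups. Mat2a overlapped in the same way, at 90.0 to 142 CPM over all 9 samples.

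Cbs and Cdo1, which open and follow transsulfuration, passed in none of the 12 comparisons at this depth. Cbs had 0 to 63 counts per sample and Cdo1 0 to 40, and both were listed at 0 in some samples. In the 2D/3D table the libraries labelled 3D Cxcl5-/- held 0.607 to 0.885 CPM of Cbs against 0.174 to 0.719 CPM in 3D WT, with a log2 fold change of 0.83 ± 0.46 (adjusted p = 0.157) that passed without 3D WT replicate 3 (1.60, adjusted p = 0.0108) or with library totals (1.24, adjusted p = 0.0374). Over the 12 comparisons Ahcy passed in 8, Cth and Mat2a in 7 each, Mtrr and Mat2b in 5 each, Mtr in 3 and Mtap in 1. These comparisons share samples and do not count as independent.

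The other genes of these pathways were counted from 3 lists. In 3D WT against 2D WT, of 8 genes of methionine salvage and polyamine synthesis 0 rose and 6 fell (median log2 fold change -0.72), against 44.3% of all genes called in either direction. Among those that fell were Odc1, which makes putrescine (-0.99 ± 0.08, adjusted p = 2.91e-07), and Srm, which makes spermidine (-0.89 ± 0.08, adjusted p = 1.05e-06). Against WT of the overexpression table, Cxcl5-/- had 2 higher and 6 lower (median -0.57), against 41.9% of all genes. In MycOE against Cxcl5-/- 6 rose and 1 fell (median 1.09, against 39.6% of all genes), with Amd1, which decarboxylates SAM for polyamine synthesis, at 1.73 ± 0.08 (adjusted p = 8.44e-08) and Odc1 at 1.31 ± 0.11 (adjusted p = 2.82e-06). Both overexpression comparisons share their Cxcl5-/- libraries with that against WT, which favours a reversal. In Hif1aOE against Cxcl5-/- the count was also 6 up and 1 down (median 0.73, against 35.5% of all genes). In the libraries labelled 3D Cxcl5-/- against 3D WT it was 3 up and 4 down, against 45.0% of all genes, with Adi1 at 0.75 ± 0.14 (adjusted p = 0.000527) and Amd1 at -0.73 ± 0.10 (adjusted p = 5.88e-05).
Of 8 genes of cysteine breakdown and sulfide handling, 2 rose and 3 fell in the libraries labelled 3D Cxcl5-/- against 3D WT, beside 45.0% of all genes called. Sqor, the mitochondrial sulfide oxidase, stood at 1.90 ± 0.14 (adjusted p = 2.30e-07) and Csad, which makes hypotaurine, at 1.51 ± 0.12 (adjusted p = 2.71e-07), while Got1 stood at -1.16 ± 0.11 (adjusted p = 2.36e-06) and Ethe1 at -0.87 ± 0.13 (adjusted p = 0.000115). In 2D Cxcl5-/- against 2D WT, 2 of the 8 rose and 0 fell, beside 7.03% of all genes called. These were Sqor (1.76 ± 0.14, adjusted p = 3.06e-06) and Csad (0.56 ± 0.11, adjusted p = 0.00766). Against WT of the overexpression table, Cxcl5-/- had 2 higher and 2 lower, beside 41.9% of all genes called, Csad (2.10 ± 0.13, adjusted p = 4.89e-07) and Sqor (1.35 ± 0.14, adjusted p = 2.55e-05) rising and Got1 (-1.44 ± 0.11, adjusted p = 2.53e-06) and Ethe1 (-0.91 ± 0.18, adjusted p = 0.00239) falling. All 4 changed in the opposite direction against Cxcl5-/- with Hif1a and with Myc. These comparisons share their Cxcl5-/- libraries with that against WT, in which the genes were picked for the size of their change. Such a choice favours a reversal, and the share of all genes that reversed was not counted. The log2 fold changes with Hif1a were -1.41 for Csad, -0.74 for Sqor, 1.03 for Got1 and 1.21 for Ethe1, and with Myc -1.03, -1.40, 1.19 and 0.78 in the same order, the last named after its value was seen.
Of 12 further genes of the methionine cycle and remethylation, 10 were tested in the 2D/3D table and 12 in the overexpression table. In the libraries labelled 3D Cxcl5-/- against 3D WT 2 rose and 2 fell, a share near the 45.0% of all genes called, with Ahcyl2 at 0.53 ± 0.09 (adjusted p = 0.000320) and Ahcyl1, like Ahcyl2 a relative of Ahcy, at -0.51 ± 0.12 (adjusted p = 0.00379). Against WT of the overexpression table, Cxcl5-/- had 2 higher and 0 lower, a share below the 41.9% of all genes called, Ahcyl2 again among them (0.63 ± 0.11, adjusted p = 0.000891). Near-identical copies of these listed genes were not searched for.

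Over the 12 samples of the 2D/3D table, the genes whose log2 CPM followed Cth most closely among 14442 compared were Rnf141, Gadd45b and Sh3gl3 (Pearson r of 0.978, 0.977 and 0.975), and those closest to Ahcy were Ahcyl, its near-identical copy (r = 0.999), Cenpn (0.997) and Sae1 (0.997). The samples fall into 4 groups, which these values mainly reflect, and they are given as a description.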

How the data were processed

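RNA-seq libraries (stranded total RNA, paired reads) were aligned by the authors with HISAT2 to GRCm38 (mm10 per the labels) and summarized with StringTie, and they deposited 3 tables of raw counts per gene. The annotation release and the step from transcripts to gene counts were not given in the sources used here. Columns were matched to samples by name, with 0 columns left unmapped, and groups came from the labels.

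Each table was fitted on its own with edgeR 4.0.16 (R 4.3.3): filterByExpr by group, TMM scaling, glmQLFit and glmQLFTest over all groups of the table, with Benjamini-Hochberg adjustment over all genes tested and calls at an adjusted p under 0.05. Standard errors are the absolute log2 fold change divided by the square root of F. Alternatives were DESeq2 1.42.0, its size factors, library totals, no filter, a minimum of 10 counts in each sample, a fit on the compared groups alone, a replicate block, each sample left out, entries of a symbol summed, and a log2 fold change above 1. Summing near-identical copies (BLAST 2.17.0, identity of at least 95% over at least 300 bases) was chosen after seeing the data. The fits were tested on simulated data.

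The text names all members, Cxcl5, Hif1a and Myc, at most 2 genes per other list and direction with the largest called change, and 3 genes most like Cth and Ahcy (mean count of at least 50), apart from 1 listed gene that is not reported here. The members and lists were chosen with earlier results of these data known. Gene spans came from GENCODE M21 by Ensembl ID and promoter windows from RefSeq by symbol. Samples held 41542533 to 78498230 counts, and members with few counts (Cbs, Cdo1, and Cth in the conditioned medium table) are imprecise.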

Additional observations from a re-analysis of the deposited data

Results flagged for a closer look

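The effect of the Cxcl5 genotype differed between 3D and 2D culture in 3 members, by the interaction term of edgeR's test over all 12 samples of the 2D/3D table. For Cth the log2 effect in 3D minus that in 2D was -3.03 (adjusted p = 1.52e-06), with the genotype effect at -2.51 in 3D and 0.52 in 2D. For Ahcy it was -0.71 (adjusted p = 0.00124), from -0.66 in 3D, where 2D values overlapped. For Mat2a it was 0.35 (adjusted p = 0.0231), from 0.36 in 3D, a call lost when any of 9 of the 12 samples was left out, with differences of 0.28 to 0.45 over all 12. The libraries labelled 3D Cxcl5-/- behind these values held more Cxcl5 counts than 3D WT. Groups of 2 or 3 samples were not searched for outlying samples.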

How the results depend on the processing

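The number of members called was within 1.5 times the reported count in all 12 comparisons with library totals, with at least 10 counts in every sample, with entries of a symbol summed, and with near-identical copies summed. With the replicate numbers as a block it was 5 in 3D WT against 2D WT, 5 in the libraries labelled 3D Cxcl5-/- against 3D WT, 6 in 3D against 2D Cxcl5-/-, 3 for the interaction, 4 in Cxcl5-/- against WT, 4 with Hif1a, 6 with Myc, 3 with Myc against Hif1a and 0 in the other 4 comparisons, and the block changed the call of none of the 48 member results with an unadjusted p under 0.10. Correlations of deviations between same-numbered samples ran from -0.24 to 0.36 in the conditioned medium table, from -0.10 to 0.18 in the 2D/3D table and from -0.02 to 0.05 in the overexpression table. Between samples of different number they ran from -0.29 to 0.29, from -0.16 to 0.14 and from -0.06 to 0.06 in the same order. With 2 or 3 samples in a group, these values cannot decide whether the numbers pair the samples. In the libraries labelled 3D Cxcl5-/- against 3D WT the 5 members called became 3 with DESeq2, with its size factors, with no filter and with only the groups compared, and 3 to 7 with 1 sample left out. DESeq2 called 1 member in 2D and 5 with Myc against Hif1a, where it called 2038 and 6492 of all genes. Leaving out 1 sample gave 2 to 4 members with Hif1a and 1 to 3 with Myc against Hif1a. Asking for an absolute log2 fold change above 1 left 2 members in 3D WT against 2D WT, 1 in the libraries labelled 3D Cxcl5-/- against 3D WT, 2 in 3D against 2D Cxcl5-/-, 1 for the interaction, 2 with Myc and 0 with Myc against Hif1a. Cth, Ahcy and Mat2a stayed above it in Cxcl5-/- against WT of the overexpression table and with Hif1a. The share of all genes above it was not counted, so these counts have no background. Signs turned only with library totals, for Mtrr (0.13) and Mat2b (0.16) in the libraries labelled 3D Cxcl5-/- against 3D WT and for Mat2b in the interaction (0.072, from -0.29), under which the median of all genes moved from -0.04 to 0.35 in the former comparison and from -0.05 to 0.32 in the latter. The cause was not tested beyond that shift. Calls on Cth and Ahcy held under the alternatives run in both comparisons of Cxcl5-/- with WT in 3D, except that Ahcy in the libraries labelled 3D Cxcl5-/- (-0.66) was under the log2 fold change of 1. With library totals the share of calls over all genes that were higher was 34.7% instead of 50.2% for 3D WT compared with 2D WT, and moved from 43.9% to 75.8% in the libraries labelled 3D Cxcl5-/- against 3D WT, from 40.9% to 77.1% for the interaction (52.3% with no filter), from 57.8% to 43.6% with Hif1a, from 54.6% to 36.3% with Myc and from 49.5% to 36.1% with Myc against Hif1a. In M1-CM against Ctrl, M0-CM against Ctrl and M1-CM against M0-CM, edgeR called 3, 0 and 3 genes, DESeq2 105, 22 and 34, and the replicate block 1, 0 and 1, while library totals gave 1 and the compared groups alone 2 in the second and a minimum of 10 counts 1 in the last. Leaving out 1 sample gave 1 to 6 genes in the comparisons with M1-CM and took the 12048 genes called in Cxcl5-/- against WT to between 7487 and 7908, a fit in which the lone sample of an arm is assumed to vary like the other groups.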

Other observations

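Cth differed between the WT spheroid groups of the tables. It stood at 24 to 59 counts (0.305 to 1.03 CPM) in Ctrl spheroids of the conditioned medium table, at 487 to 620 counts (10.5 to 12.02 CPM) in 3D WT of the 2D/3D table and at 383 and 415 counts (8.45 and 9.02 CPM) in WT of the overexpression table. Within a sample, the ratio of Cth to Ahcy counts was 0.00186 to 0.00830, 0.0993 to 0.120, and 0.0864 and 0.0902 in the same order. By CPM, Cth in Ctrl also lay below the libraries labelled 3D Cxcl5-/- (1.59 to 2.38 CPM) and below 2D WT (2.97 to 3.54 CPM). The conditioned medium table held no 2D cultures, so a change of Cth from 2D to 3D could not be read within it. The tables were normalized separately and the cultures differ in medium and experiment, so these values stand side by side with no test.

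Hif1a counts in MycOE Cxcl5-/- (241 to 271 CPM) overlapped with those in Hif1aOE Cxcl5-/- (243 to 296 CPM), so both lines stood above Cxcl5-/- in Hif1a. Myc stood at 23.0 to 26.8 CPM in Hif1aOE Cxcl5-/- and 20.0 and 22.3 CPM in Cxcl5-/-, a difference that did not pass (log2 fold change 0.25 ± 0.13, adjusted p = 0.175).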
